A study of Mus musculus with 8 samples.

Results

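The genes described here encode the proteins of the mitochondrial ribosome, and were taken as every gene name on the array that starts with Mrpl (large subunit) or Mrps (small subunit) followed by a digit. There were 77 such genes of the 35715 gene names on the array, 48 Mrpl and 29 Mrps. They were measured in the ileum, the stretch of small bowel before the colon, of female mice of the strain Rosa26rtTA/+, Hprt Myc-Tnk1tg, on 8 Agilent arrays with 1 colour. In this strain rtTA, an activator of transcription that needs doxycycline, is made from Rosa26, and a Myc-tagged transgene of the tyrosine kinase TNK1 lies at Hprt. Of the 8 arrays, 4 came from animals given doxycycline (50 µg per g of body weight in 100 µl, into the abdomen) and 4 from animals given 100 µl of 0.9% NaCl, all taken after 24 hours. The saline samples carry the same strain label but a wild-type source name, and their titles read WT where the doxycycline titles read TNK1. Whether the saline animals carried the transgene is therefore not settled by the labels. No group received doxycycline without the transgene, so the drug and TNK1 cannot be told apart. If the saline animals were wild type, genotype cannot be told apart from these either. Neither can the slide row, since the doxycycline arrays filled 1 row of the slide and the saline arrays the other. Whether each array is a separate animal is not said in the labels, and the p-values therefore cover only the spread among these 8 samples, which may be technical. The arrays read whole ileum, where fewer cells of a type and less RNA per cell cannot be told apart.

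The mitochondrial ribosome makes the few proteins that the mitochondrial genome encodes, all of them parts of the respiratory chain or of ATP synthase. Its proteins are encoded in the nucleus, made in the cytosol and imported, and they assemble on rRNA that is transcribed inside the mitochondrion. Part of its proteins have a counterpart in the bacterial ribosome, and the others were added during the evolution of mitochondria. Doxycycline is an antibiotic that blocks bacterial ribosomes and is known to inhibit mitochondrial translation as well; transcript levels do not measure translation.

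Levels below are log2 intensity minus the 75th percentile of the array. A gene was called when its adjusted p was under 0.05 in limma's moderated test with Benjamini-Hochberg adjustment over the 21362 genes tested, and differences are doxycycline minus saline on the log2 scale. Of the 77 genes, 76 were tested (47 Mrpl and 29 Mrps), each on a probe well above background on all 8 arrays. Mrpl21 was left out because its only probe was not well above background on any array, and it has no fold. The depth of an array is not a read count, and the number of arrays limits the precision. Over all tested genes, 13.8% were called, 7.9% lower and 5.94% higher with doxycycline. The check of the labels gave Hprt levels of 4.21, 4.24, 4.40 and 4.51 with doxycycline, against -2.23, -0.88, -1.95 and -1.63 with saline. The 2 Tnk1 probes disagreed: 1 read 0.34, 0.81, 0.82 and 0.60 with doxycycline and -1.93, -2.02, -1.91 and -2.74 with saline, while the brighter probe differed by -0.45 (adjusted p = 0.136 in limma).

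Most of the mitochondrial ribosome moved little. With doxycycline 4 of the 76 tested genes were lower (Mrpl14, Mrpl24, Mrpl49 and Mrps21) and 0 were higher. That is 5.26%, against 13.8% of all genes in either direction, or 7.9% lower and 5.94% higher. At an unadjusted p under 0.05, 12 of the 76 were lower and 0 higher, or 15.8%, against 31.4% of all genes in either direction. Of the 21362 genes, 3580 were lower and 3121 higher at that p. The family thus lay near the share of all genes on the lower side and below it on the higher side. The median difference was -0.07 over the 47 Mrpl genes and -0.06 over the 29 Mrps genes, beside 0.02 over all genes. Both medians lay near 0 and their sign was not stable: they were 0.02 and 0.07 with normexp background correction, 0.01 and 0.03 with array weights, and 0.06 and 0.08 without saline replicate 4. Of the Mrpl genes, 19 had a positive difference and 28 a negative one, and of the Mrps genes 13 and 16. The differences ran from -0.98 for Mrpl14 to 0.53 for Mrpl1. For 66 of the 76 genes (86.8%, against 58.4% of all genes) the whole 95% interval of the difference lay within 2-fold either way. The genes were measured with a median SE of 0.193, beside 0.223 over all genes.

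**Figure D1:**
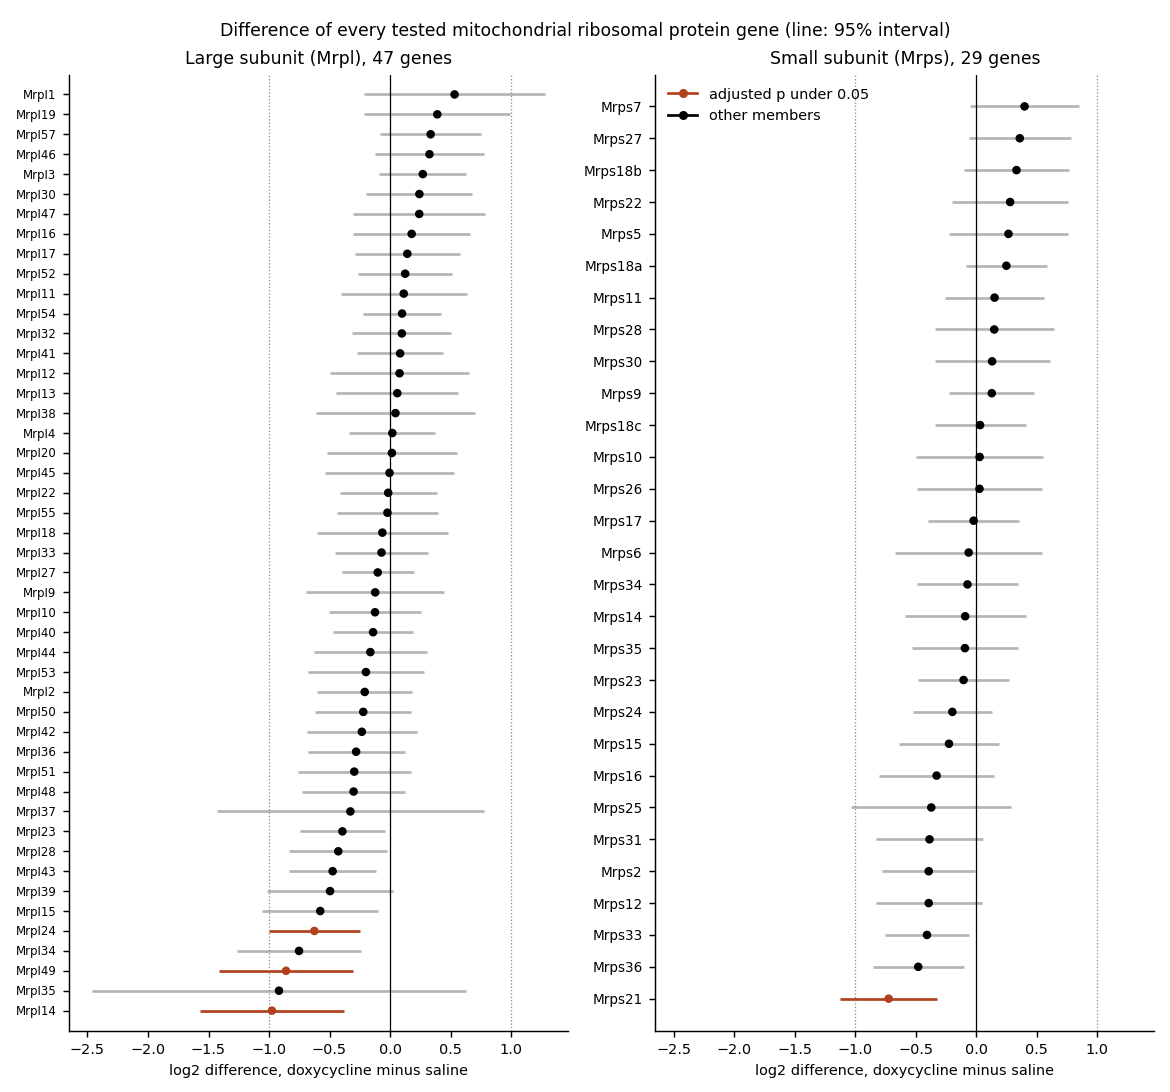
The log2 difference (doxycycline minus saline, horizontal axis) of each of the 47 Mrpl genes on the left and 29 Mrps genes on the right, with its 95% interval as a line. The 4 genes past the threshold are coloured, all of them to the left of 0, and dotted lines mark a 2-fold difference either way.

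The genes that passed the threshold were 3 of the large subunit and 1 of the small. Mrpl14 encodes the counterpart of a bacterial protein on the face of the large subunit that meets the small one, where an assembly factor also docks. Its level was 4.83, 4.63, 3.68 and 3.84 with doxycycline, against 5.24, 5.18, 5.26 and 5.21 with saline. The saline arrays lay within 0.1 of each other, while doxycycline replicates 3 and 4 lay far below replicates 1 and 2, and the groups did not overlap. The doxycycline mean was 4.25 ± 0.569 and the saline mean 5.22 ± 0.0332 (SD, n = 4 arrays per group), a difference of -0.98 (SE 0.263, limma adjusted p = 0.0404), or 1.97-fold lower. Its probe lies on chromosome 17 at 45835317 to 45835376 (mm9, the build of the array's annotation).

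Mrpl24, another counterpart of a bacterial large-subunit protein, had levels of 4.70, 4.66, 4.20 and 4.38 with doxycycline, against 5.11, 4.99, 5.05 and 5.30 with saline. The groups did not overlap, and doxycycline replicate 3 was again lowest. It was 1.54-fold lower (-0.63, SE 0.165, limma adjusted p = 0.0375), on a probe at 87727296 to 87727355 of chromosome 3 (mm9). Mrpl49, a large-subunit protein with no bacterial counterpart, had levels of 1.71, 2.02, 1.16 and 1.17 with doxycycline, against 2.46, 1.93, 2.495 and 2.61 with saline. Here the groups overlapped, since saline replicate 2 lay below doxycycline replicate 2. It was 1.81-fold lower (-0.86, SE 0.246, limma adjusted p = 0.0496) on a probe at 6053882 to 6053941 of chromosome 19 (mm9), and its other probe gave -0.51, which did not pass.

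Mrps21, the counterpart of bacterial S21, was the only small-subunit gene past the threshold. Its level was 5.01, 5.18, 4.63 and 4.91 with doxycycline, against 5.77, 5.37, 5.61 and 5.86 with saline. The groups did not overlap, and the lowest array was doxycycline replicate 3, as for the other three. It was 1.65-fold lower (-0.72, SE 0.177, limma adjusted p = 0.0288), on a probe at 95666577 to 95666636 of chromosome 3 (mm9). A single-gene exact permutation test gave p = 0.0286 for Mrpl14, Mrpl24 and Mrps21, the smallest that 4 against 4 allows, and 0.0571 for Mrpl49.

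These 4 calls rested on few arrays. None of them stood when doxycycline replicate 3, doxycycline replicate 4, saline replicate 1 or saline replicate 3 was left out, which lowered the calls over all genes as well. Leaving out 1 array at a time, the adjusted p of the lost calls was 0.0636 to 0.104 for Mrpl14 (6 of 8 arrays), up to 0.104 for Mrpl24 (7 of 8), 0.0585 to 0.13 for Mrpl49 (6 of 8) and 0.0718 to 0.0875 for Mrps21 (4 of 8). Each difference stayed negative in all 8 fits, between -1.17 and -0.79 for Mrpl14 and between -0.82 and -0.62 for Mrps21.

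**Figure D2:**
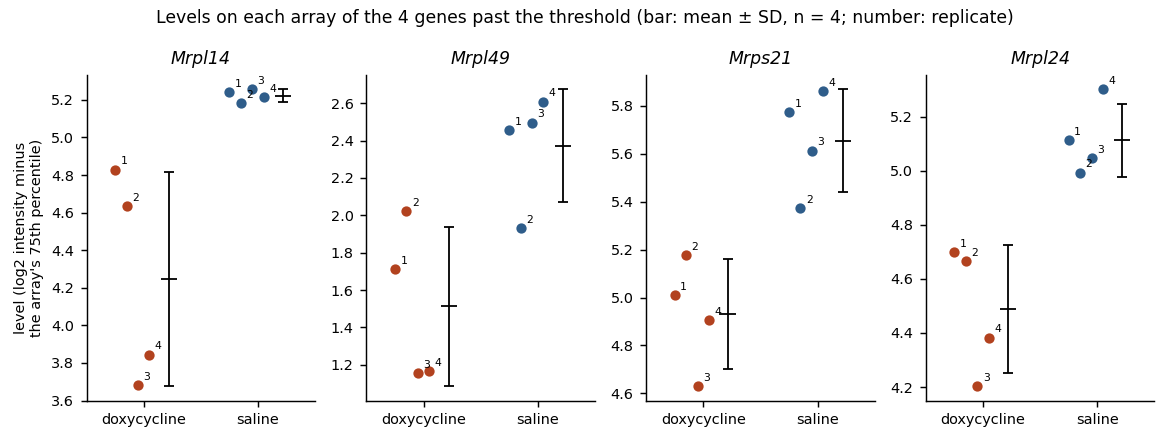
The level on each array (log2 intensity minus the array's 75th percentile, a separate vertical axis for each gene) of the 4 genes past the threshold, doxycycline on the left and saline on the right, with mean ± SD (n = 4) and replicate numbers. Doxycycline replicate 3 is the lowest point for each of the 4 genes, and the groups overlap for Mrpl49 alone.

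The promoters of these 4 genes are shown because they were the only members called. Each window holds 250 bases before and 50 after the RefSeq start of the gene (GRCm38.p6), at chr17:45686099-45686398 on the plus strand for Mrpl14, chr3:87919294-87919593 on the plus strand for Mrpl24, chr19:6057706-6058005 on the minus strand for Mrpl49 and chr3:95871465-95871764 on the minus strand for Mrps21. Capitals mark matches, on either strand, to the NRF1 motif GCGCNTGCG or the ETS motif CCGGAAG.
Mrpl14: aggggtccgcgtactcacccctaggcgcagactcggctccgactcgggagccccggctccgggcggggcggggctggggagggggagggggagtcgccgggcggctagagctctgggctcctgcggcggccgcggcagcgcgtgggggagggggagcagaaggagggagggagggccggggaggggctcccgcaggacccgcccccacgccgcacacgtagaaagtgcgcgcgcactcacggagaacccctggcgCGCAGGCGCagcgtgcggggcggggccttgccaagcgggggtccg
Mrpl24: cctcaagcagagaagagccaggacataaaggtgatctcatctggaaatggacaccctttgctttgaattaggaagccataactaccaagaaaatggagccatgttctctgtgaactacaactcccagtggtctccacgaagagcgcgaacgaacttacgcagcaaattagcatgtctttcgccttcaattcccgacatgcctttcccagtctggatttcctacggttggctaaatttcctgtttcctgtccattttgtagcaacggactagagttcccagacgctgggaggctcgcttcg
Mrpl49: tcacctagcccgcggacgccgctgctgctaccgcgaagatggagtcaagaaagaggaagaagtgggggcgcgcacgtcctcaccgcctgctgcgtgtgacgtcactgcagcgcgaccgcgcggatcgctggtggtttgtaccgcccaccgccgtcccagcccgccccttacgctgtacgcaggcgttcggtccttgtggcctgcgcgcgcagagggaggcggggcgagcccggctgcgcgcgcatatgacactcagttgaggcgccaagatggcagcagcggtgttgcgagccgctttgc
Mrps21: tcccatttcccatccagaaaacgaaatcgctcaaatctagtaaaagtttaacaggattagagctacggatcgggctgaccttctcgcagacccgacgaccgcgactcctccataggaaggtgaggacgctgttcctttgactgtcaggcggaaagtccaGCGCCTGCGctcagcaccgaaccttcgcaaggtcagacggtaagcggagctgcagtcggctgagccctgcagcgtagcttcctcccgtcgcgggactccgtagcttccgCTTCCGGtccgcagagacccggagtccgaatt
NRF1 and GABP, a factor of the ETS family, are known activators of nuclear genes for mitochondrial proteins. Mrpl14 held 1 NRF1 match, Mrps21 held 1 NRF1 and 1 ETS match, and the windows of Mrpl24 and Mrpl49 held neither sequence, nor the YY1 motif AAGATGGCG or the sequence CTCGCGAG, which were also searched on both strands.

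Each of these motifs was more frequent in the family than over all promoters, but lay in a minority of its genes. Of the 77 genes, 68 had a RefSeq window, 74 windows in all. The NRF1 motif was in 24.3% of these windows, beside 6.31% of all 32851 windows of the same length. The ETS motif was in 33.8%, beside 8.86%, the YY1 motif in 10.8%, beside 1.40%, and CTCGCGAG in 2.70%, beside 0.919%. The windows were richer in G and C, with a median of 58.5% beside 52.7%, and these motifs are themselves rich in G and C. The 18 tested genes with an NRF1 match had a median difference of 0.01, beside -0.11 for the 49 tested genes with a window and no match. The 24 with an ETS match had a median of -0.07, beside -0.12 for the 43 without. The 8 with a YY1 match had a median of -0.22, beside -0.07 for the 59 without, and the 2 with CTCGCGAG a median of 0.37, beside -0.10 for the 65 without. A difference between genes with and without a match was not tested.

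A shared start region with a neighbour on the opposite strand was also frequent. Of the 68 genes, 23 (33.8%) had another gene starting within 500 bases in the other direction, beside 10.9% of the 27025 genes with a window. In 1 pair both partners belong to the mitochondrial ribosome: Mrpl46 and Mrps11 start 42 bases apart, and differed by 0.33 and 0.15, neither past the threshold. Mrpl14 shares its region with Tmem63b (-0.15, limma adjusted p = 0.547). Mrpl49 shares it with Fau (-0.23, limma adjusted p = 0.58), which encodes a cytosolic ribosomal protein fused to a ubiquitin-like protein. Of the 21 partners tested, 0 were called in either direction, beside 13.8% of all genes. These 21 include Mrpl46 and Mrps11, each as the partner of the other.

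Among the other large-subunit genes, Mrpl34 came closest to the threshold. Its level was 3.57, 3.55, 2.93 and 3.20 with doxycycline, against 4.10, 3.59, 4.11 and 4.46 with saline. The groups were separated by a narrow gap, since saline replicate 2 lay just above doxycycline replicate 1. The difference was -0.75 (SE 0.228, limma adjusted p = 0.0587), and without saline replicate 2 it passed, at -0.91. This probe is printed on 10 spots of each array, whose SD was 0.0358 to 0.0604, so the spread between arrays was larger than that between spots.

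Mrpl35 had the second largest negative difference of the large subunit and the largest error. Its level was -4.09, -0.56, -1.22 and -1.06 with doxycycline, against -0.48, -1.33, -0.90 and -0.56 with saline. The low doxycycline mean came from replicate 1 alone. The difference was -0.92 (SE 0.684, limma adjusted p = 0.398), and -0.13 without that array. Mrpl37 showed the same form, with -1.26 on doxycycline replicate 1 and 0.77 to 1.06 on the other doxycycline arrays, against 0.19 to 1.12 with saline.

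At the upper end of the large subunit stood Mrpl1 (0.53, SE 0.332), which forms a mobile stalk near the exit site for tRNA, followed by Mrpl19 (0.39), Mrpl57 (0.34), Mrpl46 (0.33) and Mrpl3 (0.27). None of them passed, with limma adjusted p from 0.246 to 0.353. Mrpl1 read 0.12, 0.35, -0.33 and -0.00 with doxycycline, against -1.04, -0.81, -0.67 and 0.52 with saline. Saline replicate 4 lay above every doxycycline array, and without it Mrpl1 passed the threshold, at 0.87 (limma adjusted p = 0.0254). The 3 large-subunit genes with the brightest probes, Mrpl51, Mrpl33 and Mrpl52, differed by -0.30, -0.07 and 0.13.

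In the small subunit, Mrps36 (-0.48, adjusted p = 0.0867), Mrps33 (-0.41), Mrps12 (-0.39) and Mrps2 (-0.39) followed Mrps21, and none of them passed in limma. Mrps36 is named as a ribosomal protein but is known as a subunit that joins the parts of the 2-oxoglutarate dehydrogenase complex. Its level was 3.71, 3.65, 3.23 and 3.45 with doxycycline, against 4.05, 3.73, 4.11 and 4.06 with saline, with no overlap. Mrps12 lies at the centre where the ribosome reads the mRNA.

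The small-subunit genes with the largest positive differences were Mrps7 (0.40), Mrps27 (0.36), Mrps18b (0.33), Mrps22 (0.28) and Mrps5 (0.27), with limma adjusted p from 0.21 to 0.441. Mrps7, which binds the small rRNA in the head of the subunit, read 4.33, 4.61, 4.51 and 4.63 with doxycycline, against 3.94, 3.87, 4.02 and 4.66 with saline. Here too saline replicate 4 alone reached the doxycycline levels, and without it Mrps7 passed, at 0.58 (limma adjusted p = 0.0314). The other kept probe of Mrps7 went the other way, with -0.36 (limma adjusted p = 0.362 over the kept probes), and the mean of both probes differed by 0.02. The 3 paralogues of bacterial S18 gave 0.25 (Mrps18a), 0.33 (Mrps18b) and 0.03 (Mrps18c), none past the threshold. In the structure of the mammalian ribosome Mrps18a and Mrps30 sit in the large subunit, and with both counted there the medians were -0.06 for the large and -0.07 for the small subunit.

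Over both subunits the 2 groups of arrays did not overlap for 10 of the 76 genes, all lower with doxycycline (13.2%). These were the called genes other than Mrpl49, together with Mrpl23, Mrpl28, Mrpl34, Mrpl43, Mrps2, Mrps33 and Mrps36. Over all genes 21.9% did not overlap in either direction, 2787 of the 21362 lower and 1886 higher. The share of members that were lower was thus close to that of all genes, and 0 members were higher. The 47 tested genes with a bacterial counterpart had a median difference of -0.02 with 3 called (6.38%), and the 29 mitochondrial additions a median of -0.14 with 1 called (3.45%), beside 13.8% of all genes. A difference between these classes was not tested.

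How far the genes moved together was clearest within the saline group. Set against each gene's saline mean, the median over the 76 genes was -0.13, 0.00, -0.11 and 0.03 on doxycycline replicates 1 to 4, against -0.05, -0.28, -0.04 and 0.39 on saline replicates 1 to 4. Saline replicate 4 was the highest of the 8 arrays for 59 of the 76 genes (77.6%, beside 26.0% of all genes tested). Saline replicate 2 was the lowest for 37 of them (48.7%, beside 14.6% of all genes). Over all genes tested the same 2 arrays had medians of -0.05 (saline replicate 2) and 0.06 (saline replicate 4). Without both arrays 0 of the 76 genes were called by limma, in a fit that called 9.91% of all genes. Leaving out saline replicate 4 alone moved related lists too. The median went from -0.42 to -0.33 for the respiratory chain and from 0.02 to 0.10 for the cytosolic ribosome. For mitoribosome proteins under other names it went from -0.16 to -0.01. Saline replicate 4 also had the lowest 75th percentile intensity of the 8 arrays (188, against 236 to 348 on the others). The cause of its shift was not tested.

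**Figure D3:**
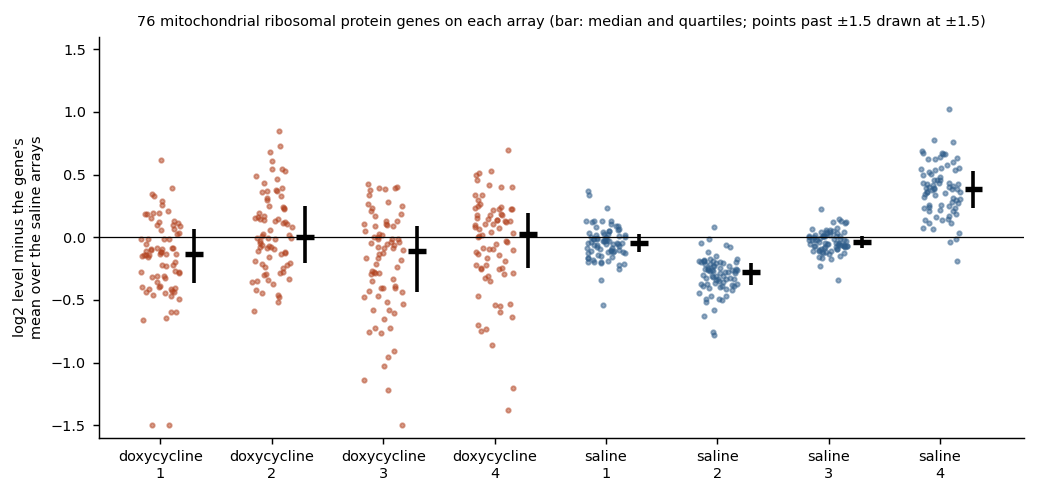
The level of each of the 76 genes on each array minus that gene's mean over the saline arrays (log2, vertical axis), doxycycline arrays on the left and saline arrays on the right, with the median and quartiles as bars. Saline replicate 2 lies low, with a median of -0.28, and saline replicate 4 high, with 0.39, while the doxycycline medians run from -0.13 to 0.03.

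Several members were read by more than 1 probe. Of 24 such genes, 16 had probes with differences of the same sign and 8 did not (Mrpl9, Mrpl22, Mrpl50, Mrps2, Mrps7, Mrps17, Mrps23 and Mrps25), with a median gap of 0.214 between the probes of a gene and 4 gaps above 0.5. The widest gap was in Mrpl9. Its brighter probe gave -0.12 (limma adjusted p = 0.778). Its dimmer probe read -1.79, -2.33, -1.67 and -1.76 with doxycycline, against -3.22, -4.69, -4.57 and -3.52 with saline, where it was not well above background on any array. It passed the filter only through the doxycycline arrays. That probe was at least 1.92-fold higher with doxycycline. The bound takes, per saline array, the higher of its own signal and the lowest signal well above background. Its limma adjusted p (0.00696 over the kept probes) was computed on saline readings not well above background, so it is no separate support. The dimmer probe of Mrps18b gave 0.68 (limma adjusted p = 0.0424 over the kept probes), beside 0.33 for its brighter one, which did not pass.

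Annotation limits a few members. The array's mm9 positions put the probes of 6 genes on another chromosome than RefSeq's gene of that name: Mrpl15, Mrpl23, Mrpl30, Mrpl48, Mrps26 and Mrps36. These 6 had differences of -0.58 to 0.24, with a median of -0.35 beside -0.06 for the other 70 members. They had 0 calls, beside 13.8% of all genes. Mrpl15, Mrpl23 and Mrps36 are 3 of the 12 members lower at an unadjusted p under 0.05, and Mrpl23 and Mrps36 are 2 of the 10 whose groups did not overlap. What these probes read was not tested. Without them 9 of 70 members were lower at that unadjusted p and 8 of 70 had groups that did not overlap. Mrpl15 and Mrpl30 each had a dimmer kept probe on the RefSeq chromosome, with -0.82 and 0.33, the same direction as the brighter one. Neither passed the threshold. The dimmer probe of Mrpl22, which differs in sign from the brighter one, lies on chromosome 14, while RefSeq puts the gene on 11. A further 7 probes had no position. None of the 4 called genes was among them.

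The other proteins of the same ribosome carry other names. Dap3, Ptcd3, Chchd1 and Aurkaip1 of the small subunit and Gadd45gip1 and Ict1 of the large subunit differed by -0.26 to -0.13. Of these 6, 0 were called by limma and 0 passed an unadjusted p of 0.05, beside 13.8% and 31.4% of all genes. Mitochondrial translation factors gave 1 lower and 0 higher of 15 (6.67%, beside 13.8% of all genes): Mtrf1l, a release factor, was 1.77-fold lower (-0.82, limma adjusted p = 0.0397). Tufm, the elongation factor that brings tRNA to the ribosome, differed by -0.45, which did not pass.

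Of 21 tested factors that assemble the ribosome or modify its rRNA, 3 were lower and 1 higher (19.0%, beside 13.8% of all genes). Tfb1m, which methylates the small rRNA, read -2.64, 0.05, -1.82 and -1.24 with doxycycline, against 0.57, 0.16, 0.52 and 0.86 with saline. It was 3.84-fold lower (-1.94, SE 0.493, limma adjusted p = 0.033), with doxycycline replicate 2 close to the saline arrays and still below them. Ngrn, which takes part in handling the large rRNA, was 1.89-fold lower (-0.92, limma adjusted p = 0.0251), and Mrm1, a methyltransferase of the large rRNA, was 1.68-fold lower (-0.75, limma adjusted p = 0.0449). Wbscr16, known to work with Ngrn, was 1.92-fold higher (0.94, limma adjusted p = 0.0479). Without doxycycline replicate 3, doxycycline replicate 4, saline replicate 1 or saline replicate 3 none of these 4 genes and not Mtrf1l were called, with adjusted p of 0.0582 to 0.127. Counting every array, leaving out 1 lost the call of Mrm1 in 7 of 8 fits, of Mtrf1l and Wbscr16 in 6, of Tfb1m in 5 and of Ngrn in 4.

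Among 14 genes of mitochondrial transcription and RNA handling, 1 was higher and 0 lower (7.14%, beside 13.8% of all genes). Ptcd1, which acts on mitochondrial tRNA and rRNA, was 1.65-fold higher (0.73, limma adjusted p = 0.0376), and its call was lost without any 1 of 6 arrays (0.0522 to 0.102). Tfam, which packages mitochondrial DNA, differed by -0.32. Of the 9 regulators 0 were called by limma (1 lower and 1 higher at an unadjusted p under 0.05, or 22.2% beside 31.4% of all genes). Nrf1 differed by 0.29, Gabpa by 0.06, Ppargc1a by -0.19 and Myc by -0.36. Of 12 mitochondrial chaperones, proteases and stress factors 0 were called by limma (1 lower and 0 higher at an unadjusted p under 0.05, or 8.33%). Hspd1 differed by 0.31 and Lonp1 by -0.06. Over all genes 13.8% were called, and lists this small hold few genes at that share.

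**Figure D4:**
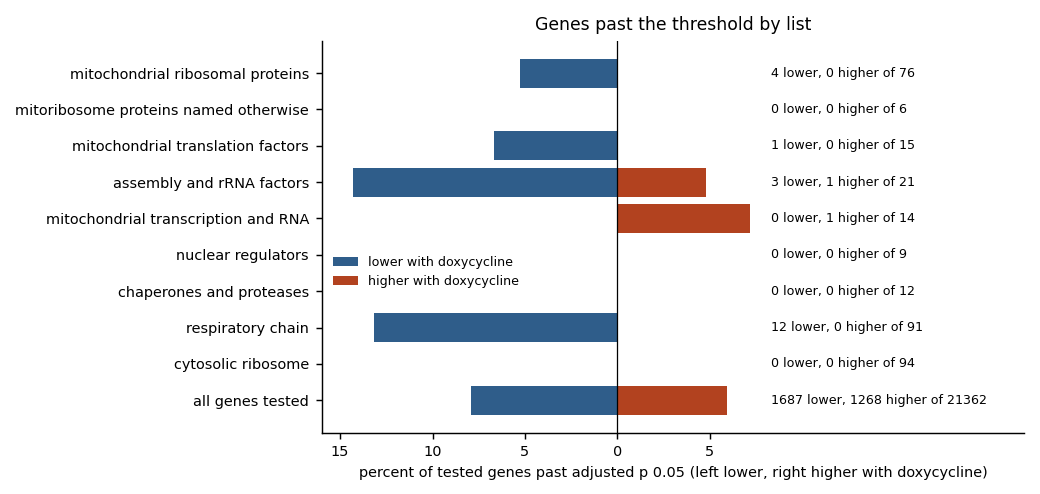
The percent of tested genes in each list past adjusted p 0.05 in limma, lower with doxycycline to the left of 0 and higher to the right, with the counts beside the bars. The mitochondrial ribosomal proteins gave 4 lower and 0 higher of 76, the respiratory chain 12 lower and 0 higher of 91, and all genes 1687 lower and 1268 higher of 21362.

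The respiratory chain, which receives the products of this ribosome but is mostly encoded in the nucleus, was read on the same arrays. The 91 tested genes were matched by name: Nduf followed by a, b, c, s or v, Sdha to Sdhd, Uqcr, Cox4 to Cox8 and Atp5. The list therefore also holds assembly factors such as Ndufaf3. Of these 91 genes, 12 were lower and 0 higher, and the median difference was -0.42, between -0.50 and -0.30 in the 19 alternatives. The count was less stable: 3 were lower without saline replicate 1 or saline replicate 3, 4 without doxycycline replicate 2, 3 or 4, 7 without saline replicate 4 and 18 without saline replicate 2, with 3 under the replicate block and 40 with array weights. Over all genes the lower calls moved as well, from 1687 to 765 and 729 without saline replicate 1 or saline replicate 3. They were 1364, 818 and 894 without doxycycline replicate 2, 3 or 4, and 1656 and 1548 without saline replicate 4 or saline replicate 2. The replicate block gave 905 and array weights 3400. The groups of the respiratory chain did not overlap for 40 of the 91 genes, all lower with doxycycline (44.0%, beside 21.9% of all genes in either direction). Of all 21362 genes, 2787 had groups that did not overlap and were lower. Cox7a1, a subunit of cytochrome c oxidase, was 2.51-fold lower (-1.33, limma adjusted p = 0.00396), Ndufaf3, an assembly factor of complex I, 1.99-fold lower (-0.99, limma adjusted p = 0.0139), and Ndufv3, a subunit of complex I, 1.74-fold lower (-0.80, limma adjusted p = 0.00767). The probes of Ndufv3 disagreed, and with their mean it differed by -0.12 (limma adjusted p = 0.566). The 94 cytosolic ribosomal names were Rpl and Rps followed by a digit, some of them kinases of a ribosomal protein. Of these, 0 were called by limma and the median was 0.02. At an unadjusted p under 0.05, 2 were lower and 1 higher, or 3.19% beside 31.4% of all genes. The shares of the 3 families were thus 5.26%, 13.2% and 0.00%, with 0 genes called higher in any of them, beside 13.8% of all genes (7.9% lower). The difference between the families was not tested.

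**Figure D5:**
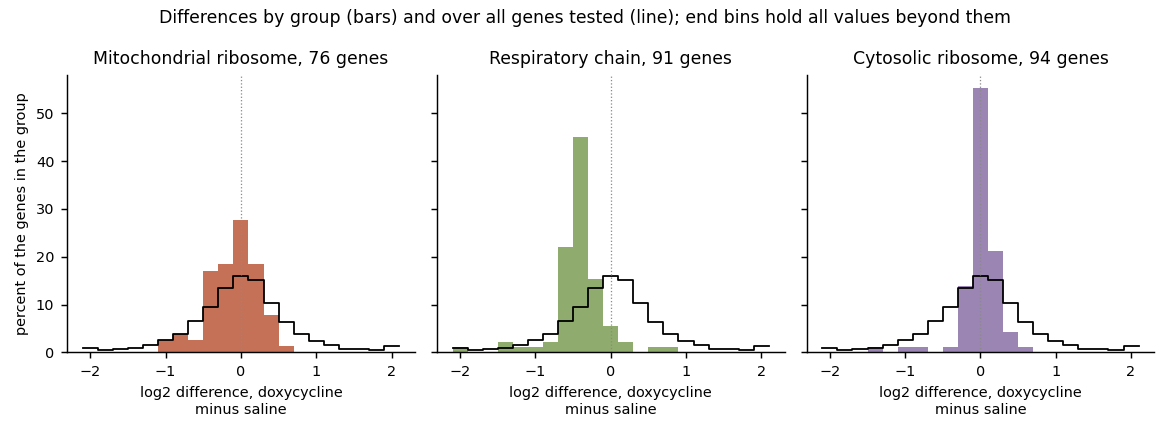
The percent of genes (vertical axis) by log2 difference, doxycycline minus saline, in bins of 0.2. Bars show 76 mitochondrial ribosomal, 91 respiratory chain and 94 cytosolic ribosomal names, and the line shows all genes tested. The mitochondrial ribosome lies around 0 with a median near -0.07, the respiratory chain around -0.42 and the cytosolic ribosome around 0.02.

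The tissue label and the mix of cells were read from marker genes. The ileal markers Fabp6, Slc10a2, Vil1, Cdx2 and Epcam were well above background on all arrays, while Lct was so on 4 doxycycline arrays and 1 saline array. The summed level of the 6 was 9.57 to 10.24 with doxycycline and 10.04 to 10.27 with saline (log2). Cdx2 was 2.21-fold lower (-1.14, limma adjusted p = 0.00543), 1 of 6 called. Of the 6 ileal markers 5 had a negative difference and 1 a positive one (median -0.29). At an unadjusted p under 0.05, 2 were lower, and for 2 the groups did not overlap, both lower. Over all genes 13.8% were called, 31.4% passed that unadjusted p and 21.9% did not overlap. These shares stand beside each marker count in this paragraph. For 5 myeloid markers the sum was 5.80 to 6.25 with doxycycline and 5.06 to 5.78 with saline, with 2 called: S100a9 was 6.02-fold higher (limma adjusted p = 0.0254) and S100a8 at least 3.58-fold higher (limma adjusted p = 0.0264), since no saline array read it well above background. S100a8 thus passed the filter only through the doxycycline arrays, and its p-value uses saline readings not well above background. For 6 lymphocyte markers the sum was 4.04 to 5.48 with doxycycline and 3.15 to 5.63 with saline, with 0 called by limma. Their differences ran from -0.46 to 2.73 (median 0.80, median SE 0.50), 4 positive and 2 negative. Of these markers 1 was higher at an unadjusted p under 0.05. The sum for 5 smooth muscle markers was 7.81 to 8.54 with doxycycline and 7.77 to 9.06 with saline, with 0 called by limma and 0 at that unadjusted p. Of 4 stomach and colon markers, Gkn1 and Atp4a were not tested for want of signal. The other 2 passed the filter, so signal for this list was not absent. They differed by 0.14 and 0.72, with 0 called by limma and 0 at that unadjusted p. The part of the cell mix in the differences above was not tested.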

How the data were processed

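RNA from 8 samples (4 doxycycline, 4 saline) was labelled from 200 ng, per the labels, and hybridised to arrays of 1 slide, per the file headers. The deposited scanner files hold spot intensity from Agilent Feature Extraction 10.7.3.1, background-subtracted per the file headers. The deposited value table holds log2 values equal to the log2 processed intensity minus a constant per array, and was an alternative only.

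Control and outlier spots (169 to 259 per array) were left out, spots of a probe averaged, and the 75th percentile of each array subtracted. Probes well above background on at least 4 of 8 arrays were kept (28626 of 55681, 100 of 103 for the family), and each gene was read by its brightest kept probe, which was the brightest of all its probes for each of the 76 tested members. On the doxycycline arrays 54.7% to 57.0% of probes were well above background, and on the saline arrays 39.6% to 43.1%. The test was limma 3.58.1 (R 4.3.3), two-sided, which called 2955 genes. On simulated data for this comparison (21362 genes), 36 of 100 genes changed by 1 on the log2 scale and 79 of 100 changed by 2 were recovered, with 3 false calls of 118. Only 200 genes were changed there, with independent noise, against 2955 called in the real data, so the adjustment was stricter. The recovered shares are therefore not the power of the real test. Intervals are 95% and unadjusted.

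Named genes were all called members, the 5 largest differences either way and the 3 brightest probes of each subunit, the Mrps18 paralogues, members whose probes conflicted, Mrpl21, up to 4 called genes of each related list, and 9 fixed regulators or markers of mitochondria. Genes named beyond this rule (such as Mrpl37 and those with groups that do not overlap) were chosen after their values were seen. The members, lists and alternatives were chosen with earlier results of these data known. Replicate numbers are the columns of the slide; deviations of same-numbered arrays correlated at 0.006, -0.04, 0.11 and 0.01. Alternatives covered background, normalization, filter, probes, a floor, array weights, the replicate block and left-out arrays. Probe positions are mm9; promoters and neighbours are from RefSeq (GRCm38.p6).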

Additional observations from a re-analysis of the deposited data

Results flagged for a closer look

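Within a group of 4 arrays, a single array was marked when its gap to the nearest other array, divided by the group's range, exceeded Dixon's 95% critical value. Chance marks about 1 in 20 groups, and 10 of the 152 groups of the 76 members were marked. Among the doxycycline arrays these were replicate 1 for Mrpl33 (6.11, nearest 5.90), Mrpl37 (-1.26, nearest 0.77) and Mrps18b (4.65, nearest 4.88), and replicate 3 for Mrpl23 (4.26, nearest 4.43), Mrpl36 (4.01, nearest 4.20) and Mrpl54 (4.20, nearest 4.34). Among the saline arrays these were replicate 4 for Mrpl11 (5.25, nearest 4.41), Mrpl17 (2.86, nearest 2.34) and Mrps35 (2.44, nearest 1.87), and replicate 2 for Mrps36 (3.73, nearest 4.05).

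Outside the family, saline replicate 4 stood apart for Ptcd1 (-2.12, nearest -1.59), Nrf1 (2.49, nearest 1.91) and Ppargc1a (0.56, nearest 0.99).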

How the results depend on the processing

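The count of 4 called members became 2 with quantile normalization, 12 with array weights, 0 with the replicate block, and 0 without saline replicates 2 and 4 together, an alternative chosen after seeing the data. Leaving out 1 array at a time gave 0 to 3. Called higher were 0 members, but 1 with the mean of the kept probes, 4 with array weights, and 0 to 2 leaving out 1 array. Related lists gave 18 calls, against 33 with no filter on dim probes, 32 with probes well above background on all arrays, 57 with array weights, 3 with the replicate block, 7 without saline replicates 2 and 4, and 3 to 21 leaving out 1 array. All genes gave 2955 calls, against 13659 with no filter, 6329 with array weights, 1692 with the replicate block, and 1381 to 3197 leaving out 1 array. The titles give replicate numbers but no pairing, and the low correlations of same-numbered arrays cannot settle whether one exists. With no filter the median of all genes moved to -0.33. The median differences ran from -0.19 to 0.06 for Mrpl and from -0.13 to 0.08 for Mrps over the 19 alternatives. With the mean of the kept probes Mrpl9 turned to 0.99 (limma adjusted p = 0.0361) and Tnk1 to 1.17 (limma adjusted p = 0.00502), both genes whose probes disagree. Mrpl9 was the 1 member called higher in that setting, and its mean includes the probe that passed the filter only through the doxycycline arrays. Of the other values for single genes, 841 kept their direction and side of the threshold, 112 lost a call and 13 gained one. A further 19, of 8 genes within 0.19 of 0 and none of them called, changed sign without passing. The cause of these shifts was not tested. Signal close to background limits the dim probes, such as that of Mrpl21.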
